A study of Homo sapiens with 7 samples.

Results

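The 10 genes described here encode the granins CHGA, CHGB, SCG2, SCG3, SCG5 and VGF, the prohormone convertases PCSK1 and PCSK2, the convertase inhibitor PCSK1N and the carboxypeptidase CPE. They were chosen by symbol, and each symbol matched 1 Ensembl identifier among the 66025 in the table. All 10 passed the filter on low counts and were tested among 22926 genes.

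Expression was measured by total-RNA sequencing in β-like cells made from H1, a human embryonic stem cell line, through in vitro pancreatic differentiation. The line iKD2 carries a lentiviral shRNA that doxycycline (Dox) switches on and that targets METTL14, part of the complex that writes N6-methyladenosine on RNA. Libraries came from iKD2 with Dox (iKD2 Dox+, n = 3, lettered a, b and c), from iKD2 without it (iKD2 Dox-, n = 2, lettered b and c) and from a scramble shRNA line with Dox (iSCR Dox+, n = 2, lettered a and b). All cells were transduced, selected with puromycin and sorted after staining with DA-ZP1, a zinc-responsive dye. iKD2 Dox- differed from iKD2 Dox+ in Dox alone, which was given during differentiation. Induction of the shRNA and any other effect of Dox cannot be told apart in that comparison. iSCR Dox+ and iKD2 Dox- differed in both shRNA line and Dox, so the effects of line and Dox cannot be told apart there. The study calls the replicates independent biological samples, and the labels do not say whether they came from separate differentiations. The p-values set group differences against the spread between these libraries, part of which may be technical.

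Total estimated counts ranged from 14875429 to 20639156 per library. Levels are TMM-scaled CPM, that is, counts brought to one library size, each followed by the replicate letter in parentheses. METTL14 itself was at 18.7 (a), 16.4 (b) and 49.1 (c) CPM in iKD2 Dox+, at 39.4 (b) and 22.6 (c) in iKD2 Dox-, and at 36.1 (a) and 32.2 (b) in iSCR Dox+. METTL14 was thus highest, of the 7, in the library that is labelled iKD2 Dox+ c, and the change against the mean of both control groups was -0.21 on the log2 scale (SE 0.53). Without that library it was -0.90, and leaving out replicate a or b of iKD2 Dox+, or b of iKD2 Dox-, gave between 0.01 and 0.06. The knockdown is therefore not visible in the METTL14 counts of every iKD2 Dox+ library, and all results below compare groups as labelled.

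Among markers of β-cells, INS lay between 11365 and 22298 CPM, while IAPP was between 5.66 and 29.4 and MAFA between 0 and 38.2. PDX1 lay between 71.1 and 190 CPM, NKX6-1 between 158 and 254, NKX2-2 between 59.9 and 140, and MNX1 between 72.7 and 138. GCG, the α-cell hormone, lay between 5039 and 12846 CPM, SST, that of δ-cells, between 1988 and 3904, and TPH1, which makes serotonin in enterochromaffin cells, between 542 and 872. The sorted cells thus held marker RNA of several endocrine types, all of which carry granins. Whether separate cells held these markers cannot be read from bulk RNA. In bulk RNA, fewer cells of a type and less RNA per cell cannot be told apart.

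Granins are acidic proteins of the regulated secretory pathway that aggregate with calcium in the trans-Golgi network and help to form dense-core granules. Within the granules, PCSK1 and PCSK2 cut prohormones at paired basic residues, and CPE then trims the basic residues that remain. Proinsulin matures to insulin and C-peptide in this way, and PCSK2 also frees glucagon from its precursor in α-cells. Granins are themselves cut into peptides such as pancreastatin from CHGA and secretoneurin from SCG2.

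Transcription of several granin genes is known to depend on a cyclic AMP response element (CRE), bound by CREB-family factors. RefSeq start-site windows of 300 bases (250 before the start and 50 after it, GRCh38.p14) covered 8 of the 10 genes with 10 windows, namely CHGA, SCG3, SCG5, VGF, PCSK1, PCSK2, PCSK1N and CPE. The full element TGACGTCA, which reads the same on both strands, occurred in the windows of CHGA, VGF and PCSK1, 3 of the 8 genes, against 2.25% of all 27305 genes with a window. The 30 bases around each match are shown on the strand of the gene, with the element in capitals, to show where the shared element lies and what flanks it in each gene.

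CHGA: ggcggcaccgcTGACGTCAtttccggggtc
VGF: tgaatgaacatTGACGTCAatggggcgggg
PCSK1: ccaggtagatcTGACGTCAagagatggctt

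These lie at chr14:92923085-92923114 (plus strand), chr7:101165630-101165659 (minus strand) and chr5:96433307-96433336 (minus strand). The first base of the element was 54, 79 and 77 bases before the RefSeq start site. In GENCODE 29, which places some starts further upstream, the CHGA stretch falls in the untranslated part of its first exon and the PCSK1 stretch in an intron, and that of VGF lies outside the gene. The half-site TGACG, part of the full element and searched on both strands, occurred in 7 of the 8 genes (all except PCSK1N) and in 28.4% of all 27305 genes with a window. TATAA, also searched on both strands, was found in 3 of the 8, again CHGA, VGF and PCSK1, and in 24.2% of all genes. These matches describe the sequence and were not set against binding data.

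CHGA exceeded the other members by more than an order of magnitude. Per kilobase of annotated exon (GENCODE 29), its mean level over the 7 libraries was 4944 CPM, against 341 for PCSK1N, 266 for CPE, 142 for SCG5 and 130 for SCG2. SCG3 followed with 84.9, PCSK2 with 63.8 and CHGB with 53.1 CPM per kilobase, and VGF and PCSK1 were the lowest with 16.2 and 15.9. The ranges over the libraries separated CHGA from PCSK1N, and CHGB from VGF, while every other pair of neighbours in this order overlapped. CHGA alone made up between 82.2% and 84.7% of the counts of the 10 genes in each library. It was also the least variable member, with a coefficient of variation of 14.8% over the 7 libraries, and PCSK1 was the most variable with 53.6%.

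**Figure D1:**
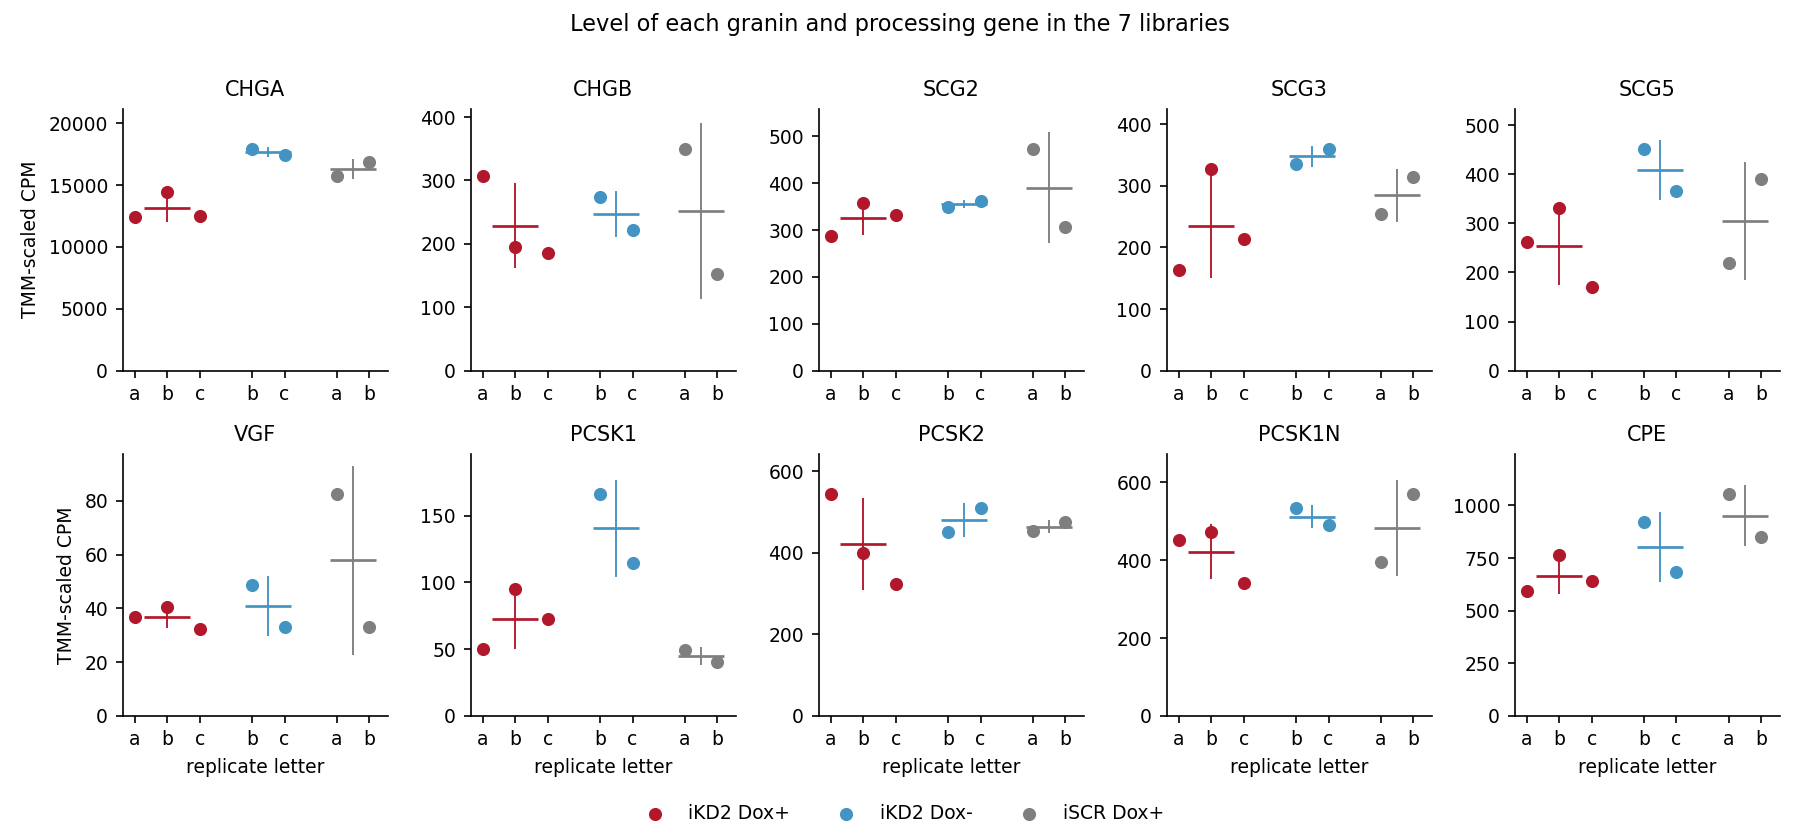
TMM-scaled CPM (vertical axis, linear from 0, one scale per gene) of the 10 genes in each library (horizontal axis, replicate letter). Points are libraries, horizontal lines group means and vertical lines 1 SD. The 3 iKD2 Dox+ points of CHGA lie below all 4 control points, and in PCSK1 both iKD2 Dox- points lie above the rest.

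CHGA (chromogranin A, ENSG00000100604, chr14:92923080-92935293, plus strand) was at 12446 (a), 14419 (b) and 12516 CPM (c) in iKD2 Dox+. It was at 17941 (b) and 17404 CPM (c) in iKD2 Dox-, and at 15738 (a) and 16900 (b) in iSCR Dox+. The 3 iKD2 Dox+ libraries were thus the lowest of the 7, with no overlap with either control group, and CHGA was the only member for which this held. Of all genes tested, 2.83% showed iKD2 Dox+ libraries that were all below the 4 controls.

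On the log2 scale the difference in CHGA was -0.43 (SE 0.10, 95% confidence interval -0.63 to -0.22) against iKD2 Dox-, a fold of 0.743. With edgeR's quasi-likelihood test its unadjusted p was 2.67e-04, and its adjusted p over all genes, by the Benjamini-Hochberg method, was 0.191. Against iSCR Dox+ the difference was -0.31 (SE 0.10, unadjusted p = 0.00437, adjusted p = 0.533, edgeR). Set against the mean of both control groups, a comparison that shares its libraries with the other two, it was -0.37 (SE 0.08, adjusted p = 0.132, edgeR). None of these passed an adjusted p of 0.05. The direction was the same in every alternative tried, and the threshold was passed in 7 of 19 alternatives against iKD2 Dox- (adjusted p from 4.22e-05 to 0.993), in 0 of 19 against iSCR Dox+ (0.0606 to 0.818) and in 9 of 18 against both groups (6.43e-04 to 0.739). Among these were fits with weaker filters, DESeq2, limma voom, and fits without iSCR Dox+ a or without iSCR Dox+ b.

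Summed markers of other cell types differed in level between the same libraries. The summed level of 6 ductal markers (KRT19, KRT7, SOX9, SPP1, CFTR and MMP7) was between 834 and 960 CPM in iKD2 Dox+, 430 to 563 in iKD2 Dox- and 485 to 574 in iSCR Dox+, with no overlap, although 0 of its 5 tested genes passed an adjusted p of 0.05 in edgeR against both control groups (2 had an unadjusted p under 0.05, and DESeq2 called 2 and voom 1). The 5 α-cell markers summed to 6463 to 11409 CPM in iKD2 Dox+, against 10907 to 15175 and 11688 to 13119 in the control groups. The sum for 6 enterochromaffin markers was 1141 to 1334 CPM in iKD2 Dox+, 1542 to 1668 in iKD2 Dox- and 1127 to 1354 in iSCR Dox+. That for 5 proliferation markers was 408 to 561 CPM in iKD2 Dox+, 251 to 268 in iKD2 Dox- and 176 to 426 in iSCR Dox+. The 6 mesenchymal markers summed to 1030 to 1714 CPM in iKD2 Dox+, above both iKD2 Dox- libraries (945 to 956) and overlapping iSCR Dox+ (1167 to 1462). Against both control groups 5 of them were higher, 4 of the 6 had an unadjusted p under 0.05, and edgeR called 0, DESeq2 2 and voom 0. Of all genes tested, 43.2% were lower and 6.56% had an unadjusted p under 0.05 (edgeR) in that comparison, where DESeq2 called 589 genes. Such a p was also found for 2 of 6 enterochromaffin, 2 of 5 proliferation, 1 of 5 α-cell and 0 of 4 δ-cell markers. The sums of 4 δ-cell markers (2105 to 3956, 2309 to 2685 and 1996 to 3781 CPM, in the same order of groups) and of 4 pluripotency markers (3.61 to 62.3, 7.65 to 15.5 and 22.5 to 27.8 CPM) overlapped. Acinar markers stayed under 20 CPM in sum, with CELA3A and PNLIP at 0 in all 7 libraries. Several sums rest mainly on their most abundant genes, namely GCG (α), SST (δ), KRT19 (ductal), MKI67 (proliferation), and COL3A1 and VIM (mesenchymal). KRT19 was at 533 (a), 626 (b) and 640 CPM (c) in iKD2 Dox+. It was at 358 (b) and 280 (c) in iKD2 Dox-, and at 396 (a) and 302 (b) in iSCR Dox+. KRT19 and SOX9 had all iKD2 Dox+ libraries above all controls, a separation not counted over all genes. KRT7, SPP1 and CFTR overlapped the controls, and MMP7 was at 0 in all libraries except iSCR Dox+ b. VIM was at 637 (a), 359 (b) and 400 CPM (c) in iKD2 Dox+. It was at 566 (b) and 667 (c) in iKD2 Dox-, and at 778 (a) and 560 (b) in iSCR Dox+. The part of these cell types in the level of CHGA was not tested.

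INS, the main cargo of the β-cell granule, was at 11625 (a), 13581 (b) and 11365 CPM (c) in iKD2 Dox+, at 17393 (b) and 14630 (c) in iKD2 Dox-, and at 22298 (a) and 21507 (b) in iSCR Dox+. It fell against iSCR Dox+ by 0.85 on the log2 scale (SE 0.10, adjusted p = 4.71e-04, edgeR, and 0.0638 without iKD2 Dox+ a), and against iKD2 Dox- the value was -0.39 (SE 0.10, adjusted p = 0.451). The ratio of CHGA to INS counts within a library was 1.07 (a), 1.06 (b) and 1.10 (c) in iKD2 Dox+ and 1.03 (b) and 1.19 (c) in iKD2 Dox-, so that these groups overlapped. Values of 0.706 (a) and 0.786 (b) were found in iSCR Dox+, below all 5 iKD2 libraries. The separation of the ratio thus ran between the lines, with or without Dox, and was not tested.

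**Figure D2:**
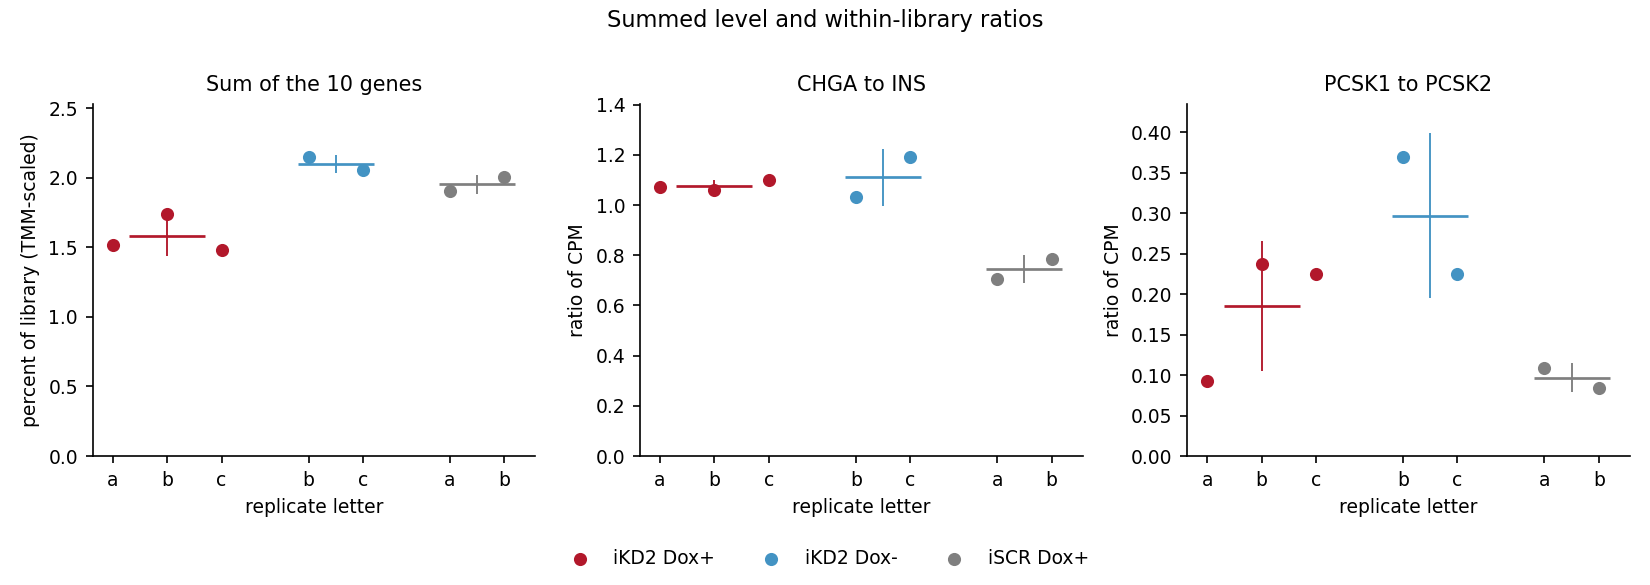
Summed level of the 10 genes in percent of the library, and the ratios of CHGA to INS and of PCSK1 to PCSK2 (vertical axes, linear from 0), by library (horizontal axes, replicate letter), with group means and 1 SD. The summed level is lowest in the 3 iKD2 Dox+ libraries, while the CHGA to INS ratio sets the 2 iSCR Dox+ libraries apart from the 5 iKD2 libraries.

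The 10 genes together made up 1.51% (a), 1.74% (b) and 1.48% (c) of TMM-scaled counts in iKD2 Dox+. Shares were larger in both control groups, with 2.15% (b) and 2.05% (c) in iKD2 Dox- and 1.91% (a) and 2.003% (b) in iSCR Dox+. Most of that is CHGA. Without it the sum was between 2312 and 2981 CPM in iKD2 Dox+, 3142 to 3528 in iKD2 Dox- and 3133 to 3332 in iSCR Dox+.

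In the comparison of Dox in the same line, all 10 members had a log2 fold change below 0, a direction found for 49.2% of all genes tested. Their median was -0.27, against 0.01 over all genes and 0.01 over the 6630 genes with a mean of at least 30 CPM. None of the 10 was among the 9 genes called at an adjusted p of 0.05, which were 0.0393% of those tested. At an unadjusted p under 0.05, 4 members passed (CHGA, SCG3, SCG5 and PCSK1), against 3.72% of all genes. The criterion stated by the study asks for an unadjusted p under 0.05 and a change over 1.5-fold. It was read here from the edgeR fit, not from the study's own values. SCG5 and PCSK1 passed it, 2 of the 10, against 3.55% of all genes. DESeq2 and voom each called 1 member, CHGA.

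**Figure D3:**
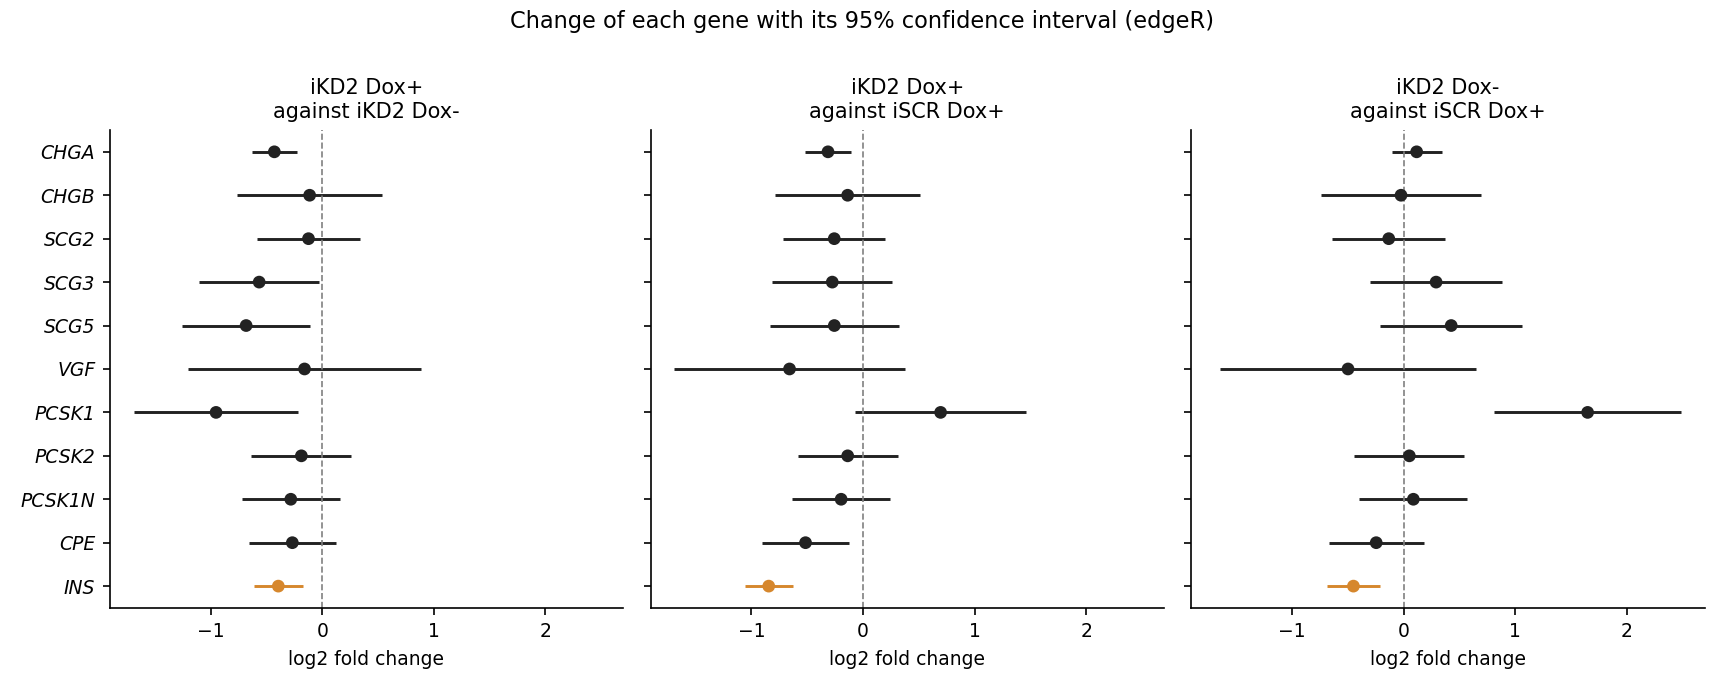
Log2 fold change (points, horizontal axis) with its 95% confidence interval (lines) for the 10 genes and INS (orange) in 3 comparisons, from edgeR's quasi-likelihood fit of all 7 libraries. Every point lies below 0 in iKD2 Dox+ against iKD2 Dox-, and PCSK1 is far above 0 in iKD2 Dox- against iSCR Dox+.

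Against iSCR Dox+, 9 members were lower in iKD2 Dox+ and PCSK1 was higher, where 46.7% of all genes were lower. The median of the members was -0.26, against 0.08 over all genes and -0.02 over those with at least 30 CPM. No member was called, with 0.0262% of all genes called. CHGA and CPE passed an unadjusted p under 0.05, 2 of 10, against 6.72% of all genes, and DESeq2 called 1 member, CPE. The criterion of the study was met by 0 of 10, and by 6.52% of all genes. Against the mean of both control groups, all 10 were lower, with a median of -0.31, where 43.2% of all genes were lower. The median of all genes was then 0.14, and that of genes with at least 30 CPM was 0.00. No member was among the 0.048% of genes called there, and 2 of 10 (CHGA and CPE) passed an unadjusted p under 0.05, against 6.56%, while DESeq2 and voom each called CHGA. Here too 0 of 10 met the criterion of the study, which 6.08% of all genes met.

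PCSK1 (ENSG00000175426, chr5:96390415-96434143, minus strand), the convertase that makes the first cuts in proinsulin, was at 50.4 (a), 94.9 (b) and 72.7 CPM (c) in iKD2 Dox+. Its level was 166 (b) and 115 (c) CPM in iKD2 Dox-, and 49.4 (a) and 40.3 (b) in iSCR Dox+. The 2 control groups therefore lay at opposite ends, with iKD2 Dox+ between them and no overlap between any 2 of the 3 groups. Of all genes tested, 11.6% had every iKD2 Dox+ library below both iKD2 Dox- libraries, and the other separations were not counted over all genes. The gap between iKD2 Dox+ (a) and iSCR Dox+ (a), 50.4 against 49.4 CPM, was small.

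The difference between the control groups, iKD2 Dox- against iSCR Dox+, was 1.65 on the log2 scale (SE 0.40, 95% interval 0.81 to 2.49), a fold of 3.13. Its unadjusted p was 5.45e-04 and its adjusted p 0.527 with edgeR. It passed the threshold in 2 of 19 alternatives, DESeq2 and the fit without iSCR Dox+ a (adjusted p from 0.00182 to 1 over all). With Dox in the same line PCSK1 was lower by a log2 value of -0.95 (SE 0.36, unadjusted p = 0.0140, adjusted p = 1, edgeR), and against iSCR Dox+ it was higher by 0.70 (SE 0.37, adjusted p = 0.699). Because the control groups differed from each other, the value against their mean was only -0.13, and it turned to 0.08 without iKD2 Dox+ a and to 0.01 without iKD2 Dox- b. An antisense gene, AC104123.1, spans PCSK1 and held up to 7.57% of the PCSK1 count in a library, and its exons do not overlap those of PCSK1.

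Between the 2 control groups, 0 of 10 members were called, with 0.0131% of all genes called, and DESeq2 called 1, PCSK1. PCSK1 was also the only member with an unadjusted p under 0.05, which 4.45% of all genes had, and the only one to pass the criterion of the study, as 4.38% of all genes did. Of the others, 5 were higher and 4 lower in iKD2 Dox-, with log2 values from -0.50 (VGF) to 0.42 (SCG5).

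PCSK2 (ENSG00000125851, chr20:17226107-17484578, plus strand), the second convertase, was at 545 (a), 399 (b) and 323 CPM (c) in iKD2 Dox+. It was at 451 (b) and 511 CPM (c) in iKD2 Dox- and at 453 (a) and 477 (b) in iSCR Dox+. Here iKD2 Dox+ held both the highest library (a) and the 2 lowest (b and c), so the groups overlapped. The log2 fold change was -0.19 (95% interval -0.64 to 0.26) against iKD2 Dox- and -0.14 (-0.59 to 0.31) against iSCR Dox+. The ratio of PCSK1 to PCSK2 counts was 0.0926 (a), 0.238 (b) and 0.225 (c) in iKD2 Dox+, 0.369 (b) and 0.225 (c) in iKD2 Dox-, and 0.109 (a) and 0.0844 (b) in iSCR Dox+.

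SCG5 (7B2, ENSG00000166922, chr15:32641676-32697098, plus strand), the chaperone that proPCSK2 needs to become active, was at 262 (a), 331 (b) and 171 CPM (c) in iKD2 Dox+, 452 (b) and 365 (c) in iKD2 Dox-, and 219 (a) and 389 (b) in iSCR Dox+. All iKD2 Dox+ libraries were below both iKD2 Dox- libraries, but iSCR Dox+ a was among the low ones. The log2 fold change was -0.68 (SE 0.27, unadjusted p = 0.0222, adjusted p = 1, edgeR) against iKD2 Dox- and -0.26 (SE 0.28) against iSCR Dox+, and the second turned to 0.22 without iSCR Dox+ b. An antisense gene, AC123768.1, overlaps exons of SCG5 and was listed at 0 in all libraries.

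PCSK1N (proSAAS, ENSG00000102109, chrX:48831094-48835633, minus strand), which inhibits PCSK1, was at 452 (a), 472 (b) and 341 CPM (c) in iKD2 Dox+, 533 (b) and 492 (c) in iKD2 Dox-, and 395 (a) and 570 (b) in iSCR Dox+. Its log2 fold change was -0.28 (95% interval -0.72 to 0.16) against iKD2 Dox- and -0.20 (-0.64 to 0.24) against iSCR Dox+. PCSK1N counts exceeded those of PCSK1 in every library, by 3.21-fold in iKD2 Dox- b to 14.2-fold in iSCR Dox+ b.

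CPE (carboxypeptidase E, ENSG00000109472, chr4:165361194-165498320, plus strand) was at 595 (a), 763 (b) and 640 CPM (c) in iKD2 Dox+, 920 (b) and 684 (c) in iKD2 Dox-, and 1055 (a) and 849 (b) in iSCR Dox+. It lay below iSCR Dox+ in every iKD2 Dox+ library, and overlapped iKD2 Dox-. The share of all genes that lay below iSCR Dox+ in this way was not counted. The log2 fold change was -0.52 (SE 0.19, unadjusted p = 0.0113, adjusted p = 0.655, edgeR) against iSCR Dox+ and -0.27 (SE 0.19) against iKD2 Dox-. With DESeq2 alone, of 20 alternatives, its adjusted p against iSCR Dox+ passed the threshold at 0.0482, and the others reached up to 1.

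SCG3 (ENSG00000104112, chr15:51681353-51721031, plus strand), which binds cholesterol and helps to sort CHGA into granules, was at 163 (a), 328 (b) and 214 CPM (c) in iKD2 Dox+, 335 (b) and 360 (c) in iKD2 Dox-, and 254 (a) and 315 (b) in iSCR Dox+. All iKD2 Dox+ libraries lay below both iKD2 Dox- libraries, b by a small margin, and overlapped iSCR Dox+. The log2 fold change was -0.57 (SE 0.26, unadjusted p = 0.0396, adjusted p = 1, edgeR) against iKD2 Dox-, and -0.36 without iKD2 Dox+ a. Against iSCR Dox+ it was -0.28 (SE 0.26, adjusted p = 0.835, edgeR), and -0.07 without iKD2 Dox+ a. Over all genes, 11.6% had iKD2 Dox+ libraries that were all below both iKD2 Dox- libraries, and of the members 5 did (CHGA, SCG3, SCG5, PCSK1 and PCSK1N).

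CHGB (chromogranin B, ENSG00000089199, chr20:5911430-5925361, plus strand) was at 306 (a), 194 (b) and 185 CPM (c) in iKD2 Dox+, 273 (b) and 221 (c) in iKD2 Dox-, and 350 (a) and 153 (b) in iSCR Dox+. The 2 iSCR Dox+ libraries thus held its highest and its lowest level. Its log2 fold change of -0.11 (95% interval -0.76 to 0.54) against iKD2 Dox- turned to 0.04 without iKD2 Dox- b, and the value of -0.14 (-0.79 to 0.51) against iSCR Dox+ turned to 0.58 without iSCR Dox+ a. Both intervals hold 0 as well as the difference found in CHGA.

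SCG2 (secretogranin II, ENSG00000171951, chr2:223596940-223602503, minus strand) was at 288 (a), 358 (b) and 333 CPM (c) in iKD2 Dox+, 349 (b) and 361 (c) in iKD2 Dox-, and 474 (a) and 306 (b) in iSCR Dox+. VGF (ENSG00000128564, chr7:101162509-101165593, minus strand), a source of neuropeptides, was at 36.8 (a), 40.6 (b) and 32.4 CPM (c) in iKD2 Dox+, 48.6 (b) and 33.1 (c) in iKD2 Dox-, and 82.5 (a) and 33.0 (b) in iSCR Dox+. In both genes iSCR Dox+ a stood well above the other 6 libraries, which overlapped. The log2 fold change against iSCR Dox+ was -0.26 (SE 0.22) for SCG2 and -0.66 (SE 0.50) for VGF, and without iSCR Dox+ a these turned to 0.09 and 0.15. Against iKD2 Dox- they were -0.12 (SE 0.22) and -0.16 (SE 0.50).

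**Figure D4:**
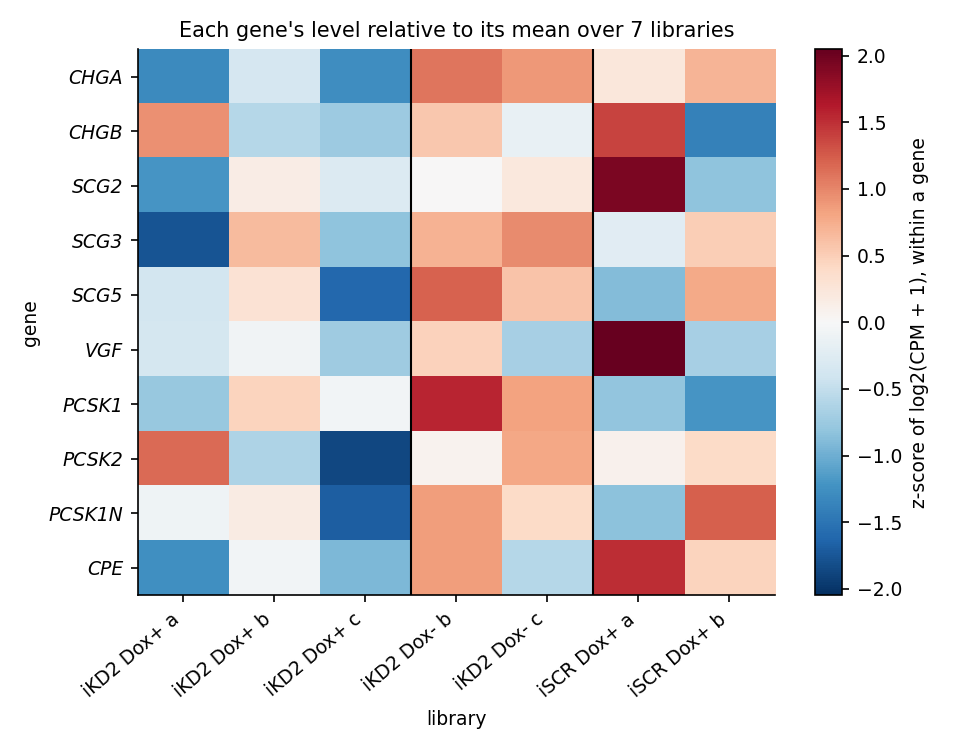
Level of each gene (rows) in each library (columns) as the z-score of log2(CPM + 1) within the gene, red above and blue below its mean, with black lines between groups. iKD2 Dox+ a and c are mostly blue, and iKD2 Dox+ b and the iSCR Dox+ libraries are mixed.

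The lowest library of a member was an iKD2 Dox+ library for 8 of the 10 genes (a for 4 and c for 4) and iSCR Dox+ b for CHGB and PCSK1. The highest was a control for 9 of 10, the exception being PCSK2. The mean z-score of the 10 genes was -0.50 (a), 0.00 (b) and -1 (c) in iKD2 Dox+, 0.74 (b) and 0.33 (c) in iKD2 Dox-, and 0.44 (a) and -0.00 (b) in iSCR Dox+, so that iKD2 Dox+ b and iSCR Dox+ b did not differ in this measure. Over the 7 libraries, CHGA followed the mean of the other 9 closely (Pearson r = 0.84, Spearman rho = 0.79), and lower values were found for CHGB (r = 0.19, rho = 0.32), PCSK1 (r = 0.27, rho = 0.29) and PCSK2 (r = 0.31, rho = 0.04). The closest pair was SCG5 and PCSK1N (r = 0.96). These values only describe 7 libraries, which fall into 3 groups and differ in depth.

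Of 4267 other genes with a mean of at least 50 CPM, the 5 whose log2(CPM + 1) most resembled the mean pattern of the members over the 7 libraries were SNORD3A (r = 0.99, rho = 0.96), PCDHGB4 (r = 0.98, rho = 0.93), 7SK (r = 0.96, rho = 1), RN7SL4P (r = 0.96, rho = 1) and SNORD10 (r = 0.96, rho = 0.93). Apart from the protocadherin PCDHGB4, these are small non-coding RNAs or, in the case of RN7SL4P, a copy of one, and none is a granule gene. The level of 7SK was 4478 (a), 4840 (b) and 3518 CPM (c) in iKD2 Dox+, 6044 (b) and 4961 (c) in iKD2 Dox-, and 5781 (a) and 4709 (b) in iSCR Dox+. SNORD3A was at 164 (a), 220 (b) and 134 CPM (c) in iKD2 Dox+, 343 (b) and 305 (c) in iKD2 Dox-, and 298 (a) and 218 (b) in iSCR Dox+. These small RNAs thus moved with the mean pattern of the members, and their part in that pattern was not tested.

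Genes that work beside the members were read from 4 lists in the comparison with the mean of both control groups, and the 3 of each list with the lowest p are named. In that comparison 43.2% of all genes tested were lower, and 6.56% had an unadjusted p under 0.05 (edgeR). Of 11 other processing enzymes, 0 passed an adjusted p of 0.05 in either direction (edgeR, and 0 with DESeq2 or voom), while 8 were higher and 3 lower, with a median of 0.27 against 0.14 over all genes. At an unadjusted p under 0.05 the count was 0 as well, and the 3 genes with the lowest p were QPCT, which forms pyroglutamate at peptide ends (-0.58, SE 0.32), PCSK4, a convertase of germ cells (1.81, SE 1.27, with 33.9 CPM in iKD2 Dox+ c and 0.490 in iKD2 Dox- c), and MBTPS1, a protease of the Golgi (0.27, SE 0.22).

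Of 18 genes for granule membranes and granule formation, 17 were tested and RESP18 was not. With edgeR, DESeq2 or voom 0 were called against both groups, where 11 were lower and 6 higher, with a median of -0.14. Of all genes, 43.2% were lower. Their lowest p-values belonged to GNAS, which encodes the G protein subunit that raises cyclic AMP and the granin-like NESP55 (-0.36, SE 0.12), PTPRN, the granule membrane protein IA-2 (-0.43, SE 0.18), and PTPRN2, its relative phogrin (-0.43, SE 0.18). These 3 were the only ones of the 17 with an unadjusted p under 0.05 (edgeR), which 6.56% of all genes had. Their adjusted p-values were 0.643, 0.733 and 0.733.

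Of 12 prohormone substrates, 10 were tested, and CARTPT and PNOC were not. With edgeR, INS was the only one called, against iSCR Dox+ and against both groups. DESeq2 called 2 against iSCR Dox+ (INS and ADCYAP1, the latter named after its values were seen) and INS against both groups, while voom called INS against iSCR Dox+ and 0 substrates against both groups. Between the control groups, DESeq2 and voom each called INS, where edgeR gave -0.45 on the log2 scale (SE 0.12, adjusted p = 0.614), past the threshold in 6 of 18 alternatives. Against the mean of these differing groups INS fell by 0.62 on the log2 scale (SE 0.09, adjusted p = 0.00242, edgeR, past the threshold in 12 of 18 alternatives). With voom its adjusted p was 0.0896, and it was 0.154 without iKD2 Dox+ a and 0.119 without iKD2 Dox+ c (edgeR). In that comparison the 10 were divided into 5 higher and 5 lower, with a median of -0.03. PPY (-1.06, SE 0.47, adjusted p = 0.739) and GCG (-0.45, SE 0.26, adjusted p = 0.823) came next. Of 7 regulators of granin genes 0 were called with edgeR, DESeq2 or voom, and the median was -0.15. An unadjusted p under 0.05 (edgeR) was found for 2 of them, RCOR1 and INSM1, and for 6.56% of all genes. RCOR1, a corepressor that acts with REST, stood at 0.76 (SE 0.32). All its iKD2 Dox+ libraries were above all controls, a separation not counted over all genes. The endocrine factors INSM1 (-0.36, SE 0.17) and PAX6 (-0.38, SE 0.21) had all iKD2 Dox+ libraries below all controls. Of all genes tested, 2.83% showed that order. The adjusted p-values of RCOR1, INSM1 and PAX6 were 0.733, 0.758 and 0.761 (edgeR). In PAX6 the low level rested largely on iKD2 Dox+ a, and without it the value was -0.14.

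**Figure D5:**
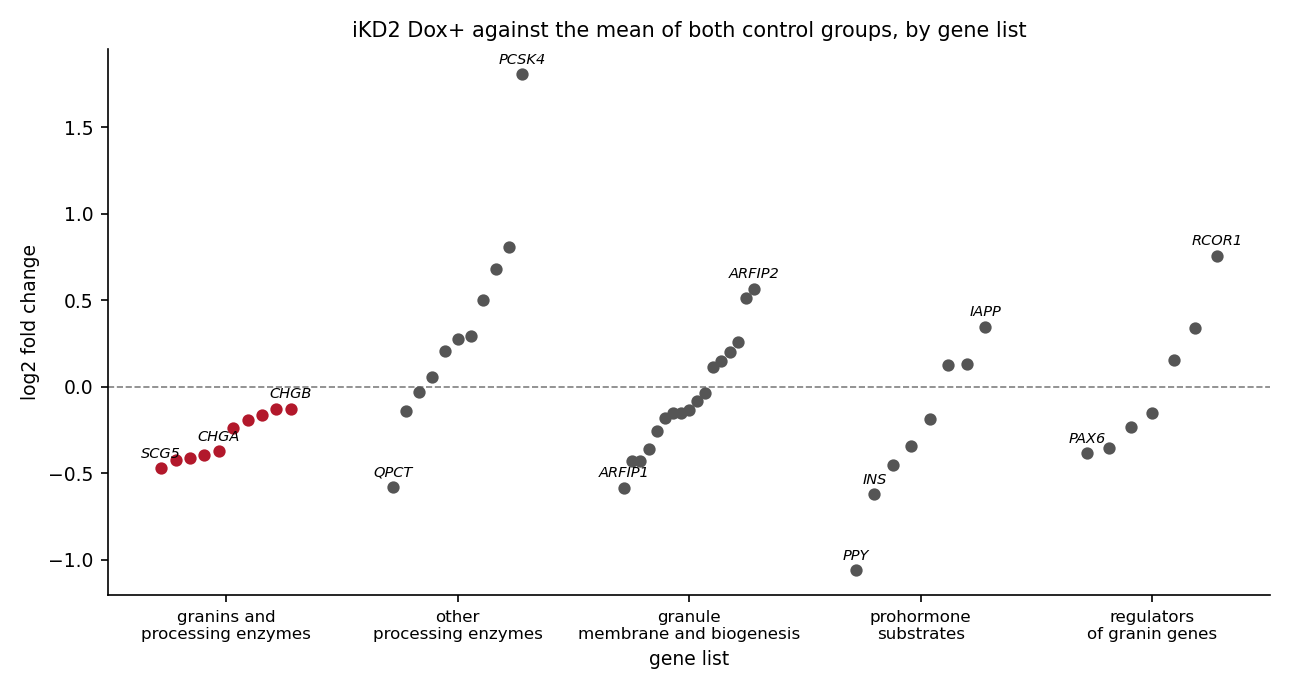
Log2 fold change of iKD2 Dox+ against the mean of both control groups (vertical axis) for the 10 members (red) and for tested genes of 4 other lists with a mean of at least 5 CPM (grey), ordered by value within each list, with CHGA, INS and the lowest and highest gene of each list named. All 10 members lie below 0, from -0.47 (SCG5) to -0.13, while each of the other lists spans 0. The values of CHGB and PCSK1 were not stable in sign: CHGB turned to 0.23 without iSCR Dox+ a, and PCSK1 to 0.08 without iKD2 Dox+ a.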

How the data were processed

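RNA-seq libraries of 7 samples were prepared by the authors with a stranded total-RNA kit. Per the labels and the study's methods, reads were trimmed with fastp, quantified with kallisto and summed per gene with tximport, and the estimated counts deposited by the authors are not normalized. Versions, genome build, annotation and strand setting were not given in the sources used here. Kallisto divides reads that fit several identifiers. Counts of CHGA and SCG5 were not whole in any of the 7 libraries and those of CHGB in 1, and 6656 identifiers had no name here, so part of their reads may lie elsewhere.

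After rounding, filtering (filterByExpr) and TMM scaling, counts were compared by the quasi-likelihood test of edgeR 4.0.16 (R 4.3.3), robust, in one fit of 3 group means. P-values were Benjamini-Hochberg adjusted over 22926 genes, and 0.05 was the limit of a call. SE was taken as the log2 fold change over the root of F. Alternatives were other scaling and filters, DESeq2 1.42.0, limma 3.58.1 voom, a replicate block and each library left out. A bias-adjusted dispersion, a pooled control group and a restriction to genes with whole counts were added after seeing the data. Scripts were tested on simulated data. Genes and coordinates were matched by identifier to GENCODE 29 (GRCh38), and start-site sequences by symbol to RefSeq (GRCh38.p14). Named genes are the 10 members, METTL14, INS, the 3 genes with the lowest p in each list (mean of at least 5 CPM) and the 5 most alike. The members and lists were chosen with earlier results of these data known. Same-group libraries differed beyond sampling noise.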

Additional observations from a re-analysis of the deposited data

How the results depend on the processing

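edgeR called 0 members in each of the 4 comparisons, and over all genes 9, 6, 3 and 11 in the order iKD2 Dox+ with iKD2 Dox- (the comparison of Dox), with iSCR Dox+ (the comparison of lines under Dox), the 2 control groups with each other, and iKD2 Dox+ with the mean of both. In the comparison of Dox the members called numbered 1 (CHGA) with no filter beyond 1 count, with a total of at least 10 counts, with DESeq2 and with voom, with or without sample weights. In the comparison with both control groups they numbered 1 (CHGA) under the same settings, with the replicate block over all groups and with the bias-adjusted dispersion. DESeq2 also called 1 between lines under Dox (CPE) and 1 between the control groups (PCSK1). Leaving out 1 library at a time gave 0 to 1 members called in every comparison except that of lines under Dox, which gave 0. The calls came without iSCR Dox+ a or b (CHGA) and without iSCR Dox+ a (PCSK1). Over all genes, DESeq2 called 218, 798, 453 and 589, and voom 8, 4, 2 and 7. Without filter beyond 1 count the counts were 51, 66, 32 and 98, with at least 10 counts 55, 75, 32 and 104, and with a mean of at least 5 CPM 2, 1, 1 and 5. The bias-adjusted dispersion gave 15, 11, 1 and 37, whole counts 24, 24, 2 and 33, and the pooled control group 3. Without iSCR Dox+ b the counts rose to 115, 544, 445 and 414. The causes were not tested. Other scaling kept every member's direction.

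Replicates of different groups share letters only: deviations from the group means correlated at 0.03 (letters b and c) and 0.04 (a and b), over 2 pairs each. The replicate block gave 76 and 28 genes called for Dox and for lines under Dox and, over all groups, 18, 15, 8 and 40. Under it CHGB turned to 0.0757, SCG5 to 0.0108 and PCSK2 to 0.00651 between lines under Dox, and over all groups CHGB turned to 0.121 there and to 0.574 between the control groups.

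Between the control groups CHGB also turned to 0.0990 with voom and to 0.0970 with sample weights. The ranges over libraries left out that cross 0 were, for Dox, -0.382 to 0.0391 for CHGB and -0.414 to 0.140 for VGF. For lines under Dox they were -0.614 to 0.579 for CHGB, -0.538 to 0.0925 for SCG2, -0.611 to 0.215 for SCG5, -1.17 to 0.149 for VGF, -0.364 to 0.0176 for PCSK2 and -0.435 to 0.0930 for PCSK1N. Between the control groups they were -0.499 to 0.693 for CHGB, -0.414 to 0.216 for SCG2, -1.01 to 0.309 for VGF, -0.0396 to 0.136 for PCSK2 and -0.152 to 0.376 for PCSK1N. Against the mean of both they were -0.394 to 0.233 for CHGB, -0.371 to 0.0766 for PCSK1 and -0.896 to 0.0555 for METTL14. CHGA, SCG3 and CPE kept their direction in all 4 comparisons under every alternative. INS was called in 17 of 19 alternatives between lines under Dox and in 12 of 18 against the mean of both.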
